A study of Mus musculus with 150 samples.

Results

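The genes described here encode enzymes that conjugate small molecules or oxidize aldehydes. They were chosen by symbol alone. The symbols were those of the glutathione S-transferase classes Gsta, Gstk, Gstm, Gsto, Gstp and Gstt, the membrane-bound Mgst, and the UDP-glucuronosyltransferases Ugt1 and Ugt2. Every Sult (sulfotransferase) and Aldh (aldehyde dehydrogenase) whose name goes on with a digit was also taken. Of the 8251 genes named on the array, 37 were members, read by 55 of the 10833 probe sets with a single gene symbol. They were 14 glutathione S-transferases of the Gst classes, 2 membrane-bound ones, 2 UDP-glucuronosyltransferases, 9 sulfotransferases and 10 aldehyde dehydrogenases. A gene with several probe sets was represented by the one with the highest mean, which applied to 14 members, and the other 23 had a single probe set.

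Glutathione S-transferases join glutathione to electrophiles such as lipid peroxidation products and drug metabolites. UDP-glucuronosyltransferases and sulfotransferases make their substrates water-soluble by adding glucuronic acid or sulfate, taken from the donors UDP-glucuronic acid and 3'-phosphoadenosine 5'-phosphosulfate (PAPS). Aldehyde dehydrogenases turn aldehydes into acids, and the Aldh1a enzymes among them make retinoic acid from retinaldehyde. Liver is known as the main organ of these reactions, with kidney as another.

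The study measured total RNA of wild-type inbred mice, called adult in its title, on 150 one-colour Affymetrix arrays of a single type, with 1 biotin-labelled cRNA sample per array. It covered 24 neural tissues (brain regions, spinal cord, pituitary, retina and choroid plexus) of the strains 129, B6 and DBA, and 10 body tissues of the strains 129, AJ, B6, C3H and DBA. Each body tissue had 5 arrays, 1 per strain, and a neural tissue had 3 to 7 of the arrays used here. Retina came from B6 alone. Motor cortex lacked 129, and both the entorhinal and the perirhinal cortex lacked B6. No treatment or altered gene is named for any group, the labels give neither age in weeks nor sex, and they do not say whether a sample pooled several animals, so p-values measure only the spread between these arrays. Some titles share a number code between tissues of a strain (22 of the 50 body arrays and 44 of the 98 neural arrays used), which the labels do not explain, and the tests took all arrays as independent. Number codes also recur between strains, as in the kidneys of 129 and B6.

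Values are the deposited intensities, on a linear scale, where the 75th percentile ran from 165 to 184 over the arrays. For tests, a floor was placed at an intensity of 10.4, under which the lowest 20% of values lie, and log2 was taken, so that a difference of 1 is 2-fold. Between 14.1% and 25.8% of an array's probe sets were on the floor. A gene was tested where at least 1 tissue mean passed an intensity of 53.2, the median of all values. A tissue call needed an adjusted p under 0.05 (limma, Benjamini-Hochberg over all genes tested) and a log2 difference of at least 1. Intensities of different probe sets are not on one scale, so a level is compared between tissues and strains and never between genes. In tissue RNA, fewer cells of a type and less RNA per cell cannot be told apart. The order of strains wherever 5 values are listed is 129, AJ, B6, C3H and DBA.

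An array labelled perirhinal cortex of DBA and another labelled hippocampus of 129 held identical values in all 12488 probe sets and were left out, which left 148. The tissue labels matched their markers: the 11 hepatocyte markers on the array summed to 67621 to 86101 in liver and to 401 to 1933 in kidney, and the 10 kidney tubule markers summed to 31927 to 44330 in kidney. Some organs carried transcripts of another. Albumin was at 1112 and 313 in the kidneys of C3H and DBA and between 41.3 and 60.7 in the other 3, against 12719 to 16358 in liver. The tubule transcript Kap was at 623 in the liver of DBA and between 25.3 and 42.4 in the other 4. Not all markers followed. In the liver of DBA, Umod was at 1.6 and Miox at 16.8, against 1194 and 5853.5 in its kidney. In the kidney of DBA, Apoa1 was at 50.6 but Tdo2 at -0.4, while the kidney of C3H had Apoa1 at 150 and Cps1 at 105. Where arrays are said below to carry transcripts of the other organ, this rests on Alb and Kap. Germ cell transcripts were in the kidneys of 129 and B6, where protamine Prm1 was at 602 and 229 (9.2 to 22.8 in the other 3) and Tnp2 at 259 and 88.8. Results for liver and kidney were therefore also computed without those first 3 arrays, and without these 2 kidneys.

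**Figure D1:**
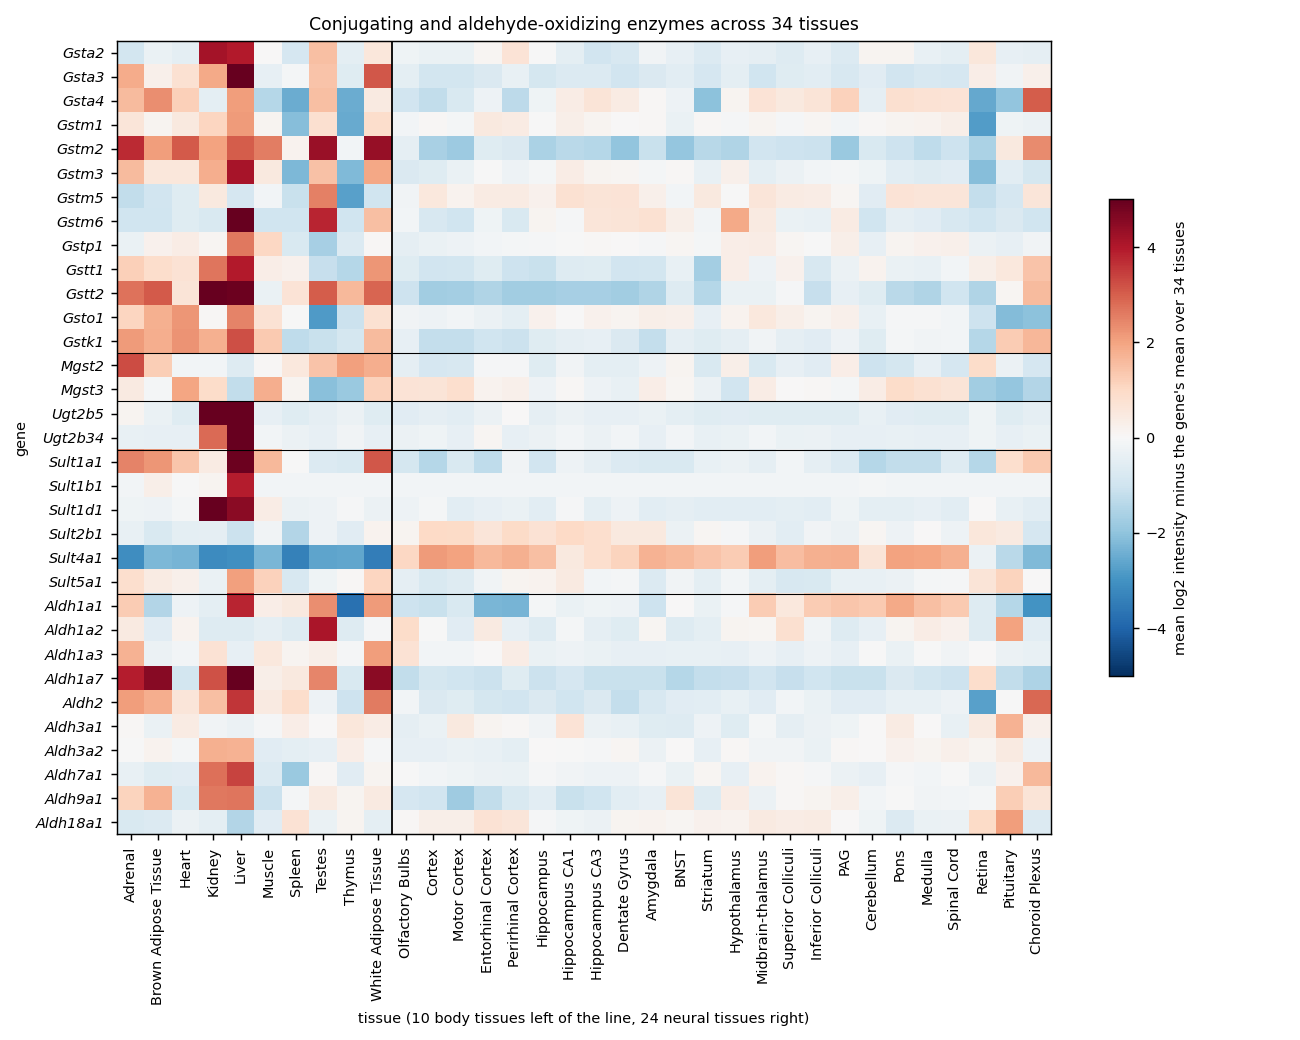
Heat map of the 33 members tested between neural and body tissues (rows) in the 34 tissues (columns, body tissues left of the line); colour is the tissue's mean log2 intensity minus that gene's mean over all 34 tissues. The liver column holds the most red cells, with Ugt2b5 8.29 log2 units above the mean of the other 9 body tissues, and Sult4a1 is the row that is red across brain and blue across the body.

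Most of the members tested were higher in liver. Of the 29 members tested among body tissues, 23 were called higher in liver than in the mean of the other 9 body tissues, against 13.2% of the 6688 genes tested, and 2 were called lower, against 21.1%. The median difference was 2.72 over these members and -0.30 over all genes tested. The other 8 members passed the filter in no body tissue, and a member that passed it only in the tissue where it is high had to differ, so these counts describe the tested members alone. In this fit 4 members passed in a single tissue: Sult1b1 and Sult5a1 in liver, Aldh1a2 in testes and Aldh1a3 in white adipose tissue. All of the 23 calls were also made without the 3 arrays that carried transcripts of the other organ, without the 2 kidneys with germ cell transcripts, and with any single array left out.

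Both UDP-glucuronosyltransferases had their highest level in liver. Ugt2b5 read 7163, 6455, 4674, 6988 and 5779 in the livers of the 5 strains and 496, 1305, 661, 1044 and 1533 in the kidneys, and the highest array of any other tissue read 44.9. The liver values lay above all others, and the difference from the other 9 tissues was 8.29 ± 0.25 (SE, limma adjusted p = 2.18e-29). Ugt2b34 read 1704, 1274, 1789, 1472 and 1477 in liver, 106, 102, 131, 100.5 and 63.7 in kidney, and differed by 6.77 ± 0.13 (adjusted p = 3e-36). The Ugt2b5 probe set is of a kind that can read several related transcripts, as are those of Gstm1, Gstm3, Gstm5, Aldh9a1, Aldh2 and Aldh7a1.

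Among the glutathione S-transferases, Gsta3 was at 3299, 2584, 2524, 1646 and 2418 in liver, and the highest array of another tissue, white adipose tissue of AJ, read 316. Its difference from the other 9 tissues was 5.81 ± 0.28 (limma adjusted p = 4.41e-22). Gstm6 stood at 716, 802, 455, 752 and 706 in liver, with the array of B6 the lowest, and differed by 5.14 ± 0.37. For Gstm3, whose liver values of 3989, 3337, 4001, 3381 and 3743 lay within 1.2-fold of each other, the difference was 3.7 ± 0.19. Gsta2, an alpha-class enzyme like Gsta3, was at 563, 839.6, 511, 272 and 482 and differed by 3.6 ± 0.38. The adjusted p-values of Gstm6, Gstm3 and Gsta2 were between 2.56e-21 and 3.7e-11.

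The sulfotransferases Sult1a1, which acts on simple phenols, and Sult1d1 were higher in liver as well. Sult1a1 read 875, 635, 1185, 493 and 1152 in liver (difference 3.81 ± 0.23). Sult1b1 read 257, 229, 142, 137 and 138, where the strains 129 and AJ were apart from the other 3. Its difference of 3.97 is a description, since it passed the filter through liver alone and was on the floor on 135 of the 148 arrays. Sult1d1 read 650.5, 319, 292, 175 and 442, a 3.73-fold range among strains, and differed by 3.96 ± 0.27. The adjusted p-values from limma were 6.26e-19 for Sult1a1 and 7.85e-17 for Sult1d1. Sult1c1, Sult2a2 and Sult3a1 passed the filter in no comparison, nor did Gsta1.

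Several aldehyde dehydrogenases were higher in liver too. Aldh1a1 was at 6910.4, 6854, 4399.8, 6909 and 6260.4 in liver and differed by 3.74 ± 0.33. Aldh1a7, its close relative, was at 2232, 2084, 1996, 1349 and 2168 and differed by 4.02 ± 0.29. Aldh7a1, which degrades a lysine-derived aldehyde, was at 4809.9, 4779.9, 3326, 4118 and 5194 and differed by 3.59 ± 0.12. The limma adjusted p-values were 1.51e-13, 4.85e-16 and 1.47e-27. The remaining 11 members called higher differed by 1.68 to 3.34: they were Gstt1, Gstp1, Gstt2, Aldh2 (the mitochondrial enzyme that clears acetaldehyde), Gstk1, Gstm1, Gsto1, Aldh9a1, Gsta4, Sult5a1 and Aldh3a2. For Sult5a1, which passed the filter through liver alone, the difference is a description.

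The 2 members called lower in liver were both membrane-bound, by the probe sets used. Mgst2 read 16.3, 15, 19.7, 9.1 and 19.9 in liver, on the floor in C3H and close to it in the others, and differed by -1.75 ± 0.31 (limma adjusted p = 3.02e-06). Mgst3 read 252, 514, 293, 514 and 144 and differed by -1.49 ± 0.27 (adjusted p = 7.5e-06). With the floor at the 40th percentile of all values, Mgst2 was -0.93 and no longer called, and its second probe set gave 0.30.

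Kidney shared only some of this pattern. In kidney 12 members were called higher than in the mean of the other 9 body tissues, against 11.8% of genes, and 4 lower, against 10.7%. The median difference was 0.79 over the 29 members and -0.17 over all genes. Sult1d1 led, at 1527, 1244, 898, 842 and 806 in kidney, above every liver value, with a difference of 5.73 ± 0.27 (limma adjusted p = 5.86e-22). Ugt2b5 followed with 5.26 ± 0.25. Gsta2 read 964, 961, 1296, 738 and 75, where the kidney of DBA was far under the other 4, and differed by 3.84 ± 0.38. Gstt2, a theta-class enzyme, read 1754, 2161, 1030.3, 1097 and 2139 and differed by 3.33 ± 0.21. Aldh7a1 read 2504, 3799, 2024, 2715 and 3317 and differed by 2.87 ± 0.12. The adjusted p-values of these 4 lay between 9.03e-24 and 1.21e-11.

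The other 7 kidney calls were Ugt2b34 (2.36), Aldh9a1 (2.13), Gstt1 (1.92), Aldh3a2 (1.73), a fatty aldehyde dehydrogenase, Gstm5 (1.17), Gstm3 (1.11) and Gstm1 (1.01), all as log2 differences. The Gstm1 call was lost in 9 of the 50 fits that left out an array, and Ugt2b34 was at 0.96 with the floor at the 40th percentile. A second Gstm3 probe set gave -0.26 where the one used gave 1.11, and a second Gstm1 probe set gave -0.44 where the one used gave 1.01. The other Gstm5 probe sets gave 1.53, 0.86 and -0.23 where the one used gave 1.17. The Gstm3 call was also lost without the kidney of 129 (0.90), and Gstm1 was at 0.91 without the 2 kidneys with germ cell transcripts. The members called lower were Aldh1a1 (-1.03), Sult1a1 (-1.14), Mgst2 (-1.2) and Gstm6 (-1.3), with adjusted p-values of 0.00616, 3.11e-05, 0.00084 and 0.00264 (limma). Without the kidneys of C3H and DBA and the liver of DBA, Sult1a1 at -0.99 and Mgst2 at -0.96 were no longer called. A 40th-percentile floor also ended the Mgst2 call (-0.86). Aldh1a1 was at 0.022 without the kidneys of 129 and B6, the 2 with germ cell transcripts, so its lower value rests on them. It was at -0.52 without the kidney of B6 alone and -0.75 without that of 129, and also just missed the threshold (-0.99) without white adipose tissue of B6.

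Liver and kidney were then set against each other directly. Of the 29 members, 18 were called higher in liver than in kidney, against 10.7% of genes, and 4 were called lower, against 15.3%. The 18 include Sult1b1 and Sult5a1, which passed the filter through liver alone, so their differences are descriptions. The median difference was 1.42 over the members and -0.11 over all genes. For Gstm6, liver values of 455 to 802 stood against 2.4, 18.2, 3.8, 4.7 and 13 in kidney, where 3 of the 5 arrays were on the floor, and the log2 difference was 5.79 ± 0.50 (limma adjusted p = 1.94e-13). Its size depends on the floor. Gsta3 read 99.4, 101, 135, 100.4 and 34.4 in kidney and differed by 4.83 ± 0.37. Sult1a1 read 26, 48.4, 57.1, 44.5 and 22.7 in kidney and differed by 4.46 ± 0.30. Aldh1a1, at 139, 1231, 66.8, 774 and 353 in kidney, differed by 4.29 ± 0.44. In each of these 4 the liver and kidney arrays did not overlap.

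The next members were Ugt2b34 (3.97), Sult1b1 (3.77, with 2 kidney arrays on the floor), Aldh1a7 (2.82), Ugt2b5 (2.73), Gsta4 (2.61), Gstp1 (2.52), Gsto1 (2.42) and Sult5a1 (2.41). The last 6 calls ran from 1.02 for Gstm2 to 2.33 for Gstm3. Under quantile normalization Gstm1, Gstm2, Gstk1 and Gstt1 were at 0.47, 0.86, 0.93 and 0.84 and were not called, and Gstm2 was at 0.65 without the 3 arrays with transcripts of the other organ. Gstm1 also lost its call without the kidney of C3H (0.99) or B6 (0.97), and Gstm2 without the liver of 129 (0.90) or DBA (0.99) or the kidney of DBA (0.89) or C3H (0.88). In the opposite direction Mgst3 was lower in liver, with a difference of -2.15 ± 0.37 and kidney at 1338, 1166, 1166, 1052 and 2548. Sult1d1 (-1.59 ± 0.36) and Gstm5 (-1.34 ± 0.23) were lower too, with kidney Gstm5 at 3366, 2296, 1854, 1746 and 3370.5 and liver at 1065, 786, 557, 1209.5 and 1456. Aldh1a3, at -1.13, was on the floor in all 5 livers and at 24.9, 23.9, 28.7, 11.9 and 29.7 in kidney, so the floor sets the size of this difference, which was -0.98 and not called without the 2 kidneys with germ cell transcripts. With the floor at the 40th percentile it had no difference left (0.00). The adjusted p-values of the 4 lower calls lay between 3.51e-06 and 0.000577 (limma).

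**Figure D2:**
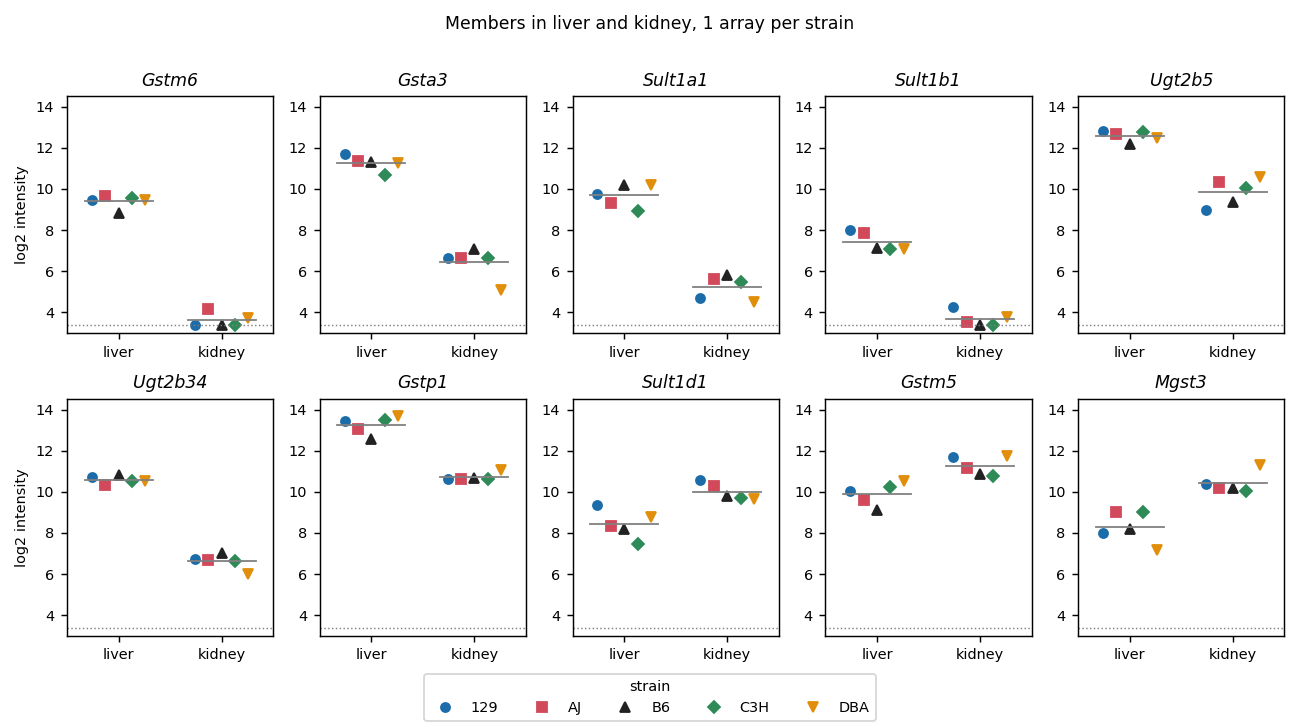
Log2 intensity of 10 members on each liver and kidney array (1 marker per strain; grey line, mean; dotted line, floor). Liver lies above kidney in Gstm6, Gsta3, Sult1a1, Sult1b1, Ugt2b5, Ugt2b34 and Gstp1, and kidney above liver in Sult1d1, Gstm5 and Mgst3, where the mean differences ran from 5.79 to -2.15.

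The upstream sequences of the members with the most opposed patterns are shown for context: Gstm6, Gsta3 and Sult1a1 as members called higher in liver than in kidney, Gstm5 as a mu-class relative of Gstm6 with the opposite sign, and Aldh1a1 and Aldh1a7 as a close pair whose tissue patterns part. Each is the 250 bases before an annotated start of the RefSeq annotation of GRCm38.p6, 5' to 3' on the gene's own strand, and 29 of the 37 members had such an entry. Capitals in the first 4 mark a motif on either strand: GTTAAT, a half-site of the hepatocyte factor HNF1, TGACNNNGC, the core of the antioxidant response element bound by Nrf2, and GCGTG, the core of the dioxin response element bound by the aryl hydrocarbon receptor. The GCGTG nearest the Gstm5 start overlaps its TGACNNNGC. In the last 2 capitals mark the longest run the pair shares.
Gstm6, outermost of 3 starts, chr3:107953467-107953716, minus strand: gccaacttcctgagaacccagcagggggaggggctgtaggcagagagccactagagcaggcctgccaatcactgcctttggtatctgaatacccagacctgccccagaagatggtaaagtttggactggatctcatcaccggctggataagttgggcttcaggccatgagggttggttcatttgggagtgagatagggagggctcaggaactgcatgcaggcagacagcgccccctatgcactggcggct
Gsta3, chr1:21240335-21240584, plus strand: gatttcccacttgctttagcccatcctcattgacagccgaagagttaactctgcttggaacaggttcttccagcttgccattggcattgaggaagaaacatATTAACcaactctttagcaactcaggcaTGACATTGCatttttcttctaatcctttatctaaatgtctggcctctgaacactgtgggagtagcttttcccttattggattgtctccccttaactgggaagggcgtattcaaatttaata
Sult1a1, chr7:126676419-126676668, minus strand: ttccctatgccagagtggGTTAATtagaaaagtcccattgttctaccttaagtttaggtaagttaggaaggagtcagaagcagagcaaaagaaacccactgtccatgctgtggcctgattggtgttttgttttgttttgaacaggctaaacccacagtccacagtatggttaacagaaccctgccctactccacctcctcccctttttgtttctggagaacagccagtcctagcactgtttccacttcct
Gstm5, chr3:107895604-107895853, plus strand: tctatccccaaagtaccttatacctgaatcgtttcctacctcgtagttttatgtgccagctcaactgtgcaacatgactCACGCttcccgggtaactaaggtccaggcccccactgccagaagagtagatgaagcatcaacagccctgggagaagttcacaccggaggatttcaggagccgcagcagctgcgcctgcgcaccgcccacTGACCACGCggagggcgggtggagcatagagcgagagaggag
Aldh1a1, the inner of 2 starts, chr19:20601718-20601967, plus strand: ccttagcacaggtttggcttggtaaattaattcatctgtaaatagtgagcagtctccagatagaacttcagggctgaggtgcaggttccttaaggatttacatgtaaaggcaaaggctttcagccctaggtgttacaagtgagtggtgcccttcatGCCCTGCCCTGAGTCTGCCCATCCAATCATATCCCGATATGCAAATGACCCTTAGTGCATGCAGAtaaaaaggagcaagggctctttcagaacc
Aldh1a7, chr19:20727557-20727806, minus strand: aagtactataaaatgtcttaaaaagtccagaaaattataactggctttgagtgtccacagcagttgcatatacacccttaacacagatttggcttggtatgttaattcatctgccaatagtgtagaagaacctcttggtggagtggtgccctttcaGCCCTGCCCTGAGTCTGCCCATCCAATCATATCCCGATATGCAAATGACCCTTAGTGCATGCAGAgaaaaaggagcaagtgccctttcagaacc

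The Gsta3 window held GTTAAT 149 bases and TGACNNNGC 121 bases before the start. Sult1a1 held GTTAAT 232 bases before it, Aldh1a7 held GTTAAT 150 bases before it, Gstm5 held TGACNNNGC 42 bases and GCGTG 171 and 38 bases before it, and the Gstm6 window shown held none of them. Over all 32851 promoter windows of that annotation, GTTAAT was in 6.43%, TGACNNNGC in 10.2% and GCGTG in 28.2%. Among the 35 windows of members, GTTAAT was in 4 (Aldh1a7, Gsta3, Sult1a1 and Sult1d1), TGACNNNGC in 4 (Aldh1a2, Aldh9a1, Gsta3 and Gstm5) and GCGTG in 13. The HNF4 site CAAAGTCCA was in none of the 35 and in 0.384% of all windows, and TATAAA was in 5 of the 35 and in 12.4% of all. A match is a description of the letters and not a bound site. Aldh1a1 and Aldh1a7 shared a run of 65 bases, from 94 to 30 bases before the start, and 94 of their last 100 bases were identical.

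In the 8 other body tissues the members moved in both directions, and the mean each was set against includes liver and kidney. Adrenal had 7 members called higher, against 7.98% of genes, and 5 lower, against 5.97%. Mgst2, a membrane-bound enzyme that can also make leukotriene C4, had its highest level there, at 419, 168, 159, 292 and 214 (2.56 ± 0.31, limma adjusted p = 4.38e-09). Aldh1a7 was higher by 1.71, Gsta4 by 1.53 and Aldh1a3 by 1.43. Gsta2 (-1.81), Gstm6 (-1.55), Sult1d1 (-1.31) and Ugt2b34 (-1.18) were lower, with Gstm6 on the floor on all 5 arrays. A 40th-percentile floor ended the calls of Aldh1a3 (0.41), Sult1d1 (-0.95) and Ugt2b34 (-0.79). The adipocyte markers summed to 4757 to 8149 in adrenal, and their part in these values was not tested.

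The fat depots separated Aldh1a1 from Aldh1a7. Brown adipose tissue had 4 members called higher, against 11.7% of genes, and 7 lower, against 9.84%. Aldh1a7 read 679, 672, 1249, 518 and 664 there and was higher by 2.44 ± 0.29 (limma adjusted p = 1.58e-09). Aldh1a1 read 166, 141, 157, 237 and 121 and was lower, with a difference of -2.11 ± 0.33 (adjusted p = 4.25e-07). Gsta4, which acts on the lipid peroxidation product 4-hydroxynonenal, was higher by 2.33, Gsto1 by 1.4 and Aldh9a1 by 1.12. Ugt2b5 (-1.62), Gstm6 (-1.55) and Gsta3 (-1.39) were lower. Muscle and heart markers summed to between 323 and 14132 over the 5 brown adipose arrays, and their part was not tested.

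White adipose tissue had 11 members called higher, against 11.7% of genes, and 3 lower, against 9.06%. Here both paralogues were high, Aldh1a7 by 2.39 ± 0.29 at 652, 967, 587, 787 and 588 and Aldh1a1 by 1.88 ± 0.33 at 1462, 1210.4, 3166, 2255 and 2117. Gstm2 was higher by 2.06 and Sult1a1 by 1.82, with adjusted p-values of 3.51e-14 and 5.23e-09 (limma). Ugt2b5 (-1.94), Sult1d1 (-1.4) and Ugt2b34 (-1.23) were lower, of which only Ugt2b5 kept its call with a 40th-percentile floor (Sult1d1 -0.95, Ugt2b34 -0.79). Gstm6 was uneven in white fat, at -0.6, 8.3, 356, 209.9 and 85.5, and its call of 1.23 was lost without the array of B6 (0.56) or of C3H (0.74).

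In testes 6 of the 29 members were called higher, a share close to the 20.8% of all genes, and 10 lower, against 25.3%. Aldh1a2, a retinoic acid-making enzyme, read 382, 269, 229, 301 and 206 in testes and at most 50.2 in every other body tissue. It passed the filter through testes alone, so its difference of 4.4 is a description. Gstm6 read 260.0, 316, 464, 191 and 282 (3.79 ± 0.37), its highest level after liver. Gstm5 read 12233, 10171, 7374, 8783 and 11779.8, above every other tissue, and differed by 3.42 ± 0.17. Aldh1a1 was higher by 2.09 ± 0.33. The limma adjusted p-values of Gstm6, Gstm5 and Aldh1a1 lay between 9.68e-22 and 2.36e-07. Gsto1 (-3.7), Mgst3 (-2.47), Gstk1 (-2.43) and Sult1a1 (-2.38) were lower. The germ cell markers summed to 34739 to 58944.

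Heart and skeletal muscle shared Mgst3 among their higher members. Heart had 4 called higher, against 11.7%, and 9 lower, against 8.75%. Muscle had 2 higher, against 12.9%, and 7 lower, against 11.9%. Mgst3 read 2399.8, 3336, 2141, 2307 and 4473 in heart (2.06 ± 0.27, limma adjusted p = 2.21e-08) and 2490.4, 2349, 1525, 2642 and 4382 in muscle (1.88 ± 0.27, adjusted p = 1.11e-07). Heart was also higher in Gsto1 (1.87), the mitochondrial and peroxisomal Gstk1 (1.3) and Gsta4 (1.07), and muscle in Gstp1 (1.06). The Gsta4 call in heart was lost without the heart of B6 (0.98) or of C3H (0.97) and with the floor at the 40th percentile (0.73), and that of Gstp1 in muscle under quantile normalization (0.79). Aldh1a7 was lower in heart (-3.68) and muscle (-2.29), as was Gstt2 (-2.02 and -3.12). Aldh9a1 was lower in both (-1.67 and -2.0), Ugt2b5 was among the 4 lowest in heart (-1.94) and Gsta3 in muscle (-2.12).

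In the lymphoid organs most calls were lower. In spleen none of 29 was called higher, where 15.7% of genes were, and none had a higher value at an unadjusted p under 0.05 (0 of 29, limma). There 16 were lower, against 20.5%. In thymus 1 was called higher, against 15.2%, and 18 lower, against 17%. The median difference was -1.37 over the members in spleen and -1.56 in thymus. In spleen Gstm3 (-3.4), Gsta4 (-2.99), Gstk1 (-2.63) and Gstm2 (-2.59) were lower by the most. Thymus had its largest in Aldh1a1, at 16, 27.6, 39.2, 68.4 and 33.1 (-4.64 ± 0.33, limma adjusted p = 2.77e-16), followed by Aldh1a7 (-3.48), Gstm3 (-3.35) and Gsta4 (-3.01). Mgst2 was the member called higher in thymus (1.23), at 95.3, 100.5, 220.2, 39.5 and 131, and was at 0.89 and not called with a 40th-percentile floor. Adipocyte markers summed to 390 to 1164 and muscle and heart markers to 233 to 7159 in thymus.

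Neural tissues were compared with body tissues over tissue means, 24 against 10, for 33 of the 37 members. Sult4a1 was the 1 member called higher in neural tissues, against 14.4% of 7199 genes, and 14 were called lower, against 14.1%. In this comparison a member was tested if any of the 34 tissue means passed the filter. Gsta2, Gsta3, Mgst2, Sult1d1 and Ugt2b5 failed the filter among neural tissues, and Sult4a1 failed it among body tissues. Their direction was favoured in advance, so their differences are descriptions. The median difference was -0.72 over the members and -0.08 over all genes. Sult4a1, a sulfotransferase known for its brain expression, was between 130.5 and 1136 on the arrays of the 21 brain and spinal cord tissues and between 8.9 and 73.4 in body tissues, with no overlap. Its difference of 3.88 is a description, since its highest body tissue mean was 44.4, under the filter level of 53.2.

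The largest lower values were those of Gstm2 (-3.46 ± 0.41), Gstt2 (-3.45 ± 0.44) and Aldh1a7 (-3.23 ± 0.49). A second Gstm2 probe set gave 0.18. Gsta3 (-2.15), Sult1a1 (-2.01), Aldh2 (-1.65), Ugt2b5 (-1.55), Sult1d1 (-1.51), Gstk1 (-1.5), Mgst2 (-1.39), Aldh9a1 (-1.34) and Gstt1 (-1.3) followed, and Gstm3 (-1.15) and Gsta2 (-1.08) were the last. Adjusted p-values of the 14, apart from the members given as descriptions, lay between 9.27e-09 and 0.0147 (limma). Several of these rest on liver or kidney: Ugt2b5 was at -0.73 without liver and -1.03 without kidney, Sult1d1 at -0.94 without kidney, Gstt1 at -0.97 and Gstm3 at -0.78 without liver, and Gsta2 at -0.72 without liver and -0.70 without kidney, none of them called then. Mgst2 (-0.83) and Sult1d1 (-0.92) were not called with the floor at the 40th percentile. Gstm1 (-0.25 ± 0.33, adjusted p = 0.531) and Gstp1 (-0.11 ± 0.24, adjusted p = 0.719) did not pass the test. Neither did Aldh1a1, at -0.39 ± 0.57, whose levels within the brain spanned a wide range. Gstm5 was 0.81 higher in neural tissues and under the 2-fold threshold, while its other probe sets gave 1.2, 0.75 and -0.12.

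In the choroid plexus, which makes cerebrospinal fluid, members were called in both directions. Of 24 members tested among neural tissues, 8 were called higher there than in the mean of the other 23, against 15.7% of 6351 genes, and 5 lower, against 19%. The median difference was -0.13 over the members and -0.12 over all genes. In this fit 6 members passed the filter in a single tissue, where their values are a description: Gstt2 and Sult1a1 in choroid plexus, Aldh1a2 and Aldh3a1 in pituitary, Aldh1a7 in retina and Gstm6 in hypothalamus. Aldh2 read 1301, 1344, 1542 and 2037 on the 2 arrays of 129 and the 2 of B6, above every other neural array, and differed by 3.54 ± 0.12 (limma adjusted p = 2.92e-43). Gsta4 read 455, 477, 802 and 784, its highest level in any of the 34 tissues, and differed by 3.26 ± 0.21. Gstm2 read 211, 241, 296 and 352 (3.6 ± 0.24). The adjusted p-values were 2.24e-25 for Gsta4 and 1.58e-24 for Gstm2. Gstt2 read 128, 116, 107 and 79.2 (2.74, a description). Sult4a1 (-3.56), Aldh1a1 (-2.94), Gsto1 (-1.91) and Mgst3 (-1.42) were lower. The summed neuronal markers were 98 to 2522 in choroid plexus and 14911 to 16094 in cortex, and Aldh1a1 was uneven among the 4 arrays, at 204, 28, 83.7 and 20.0.

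The pituitary had 9 members called higher, against 14.3% of genes, and 6 lower, against 12.9%. Aldh18a1, a proline synthesis enzyme, read 119, 143, 123 and 132 there and differed by 2.01 ± 0.23 (limma adjusted p = 6.68e-13). As descriptions, Aldh1a2 was at 39.4, 92, 87.5 and 59 (2.2) and Aldh3a1 at 52.5, 54, 54.2 and 55 (1.92, and 0.73 with a 40th-percentile floor). Gstk1 was higher by 1.78 ± 0.10. Sult4a1 (-2.63), Gsto1 (-2.03), Gsta4 (-1.99) and Mgst3 (-1.91) were lower. Neuronal markers summed to 1617 to 1847 in pituitary.

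In the retina 1 member was called higher, against 12.9%, and 10 lower, against 12.6%, with a median of -0.61 over the members and 0.03 over all genes. Gstm1 read 258, 278, 239 and 253 on the 4 retina arrays and between 1299 and 2885 on all brain and spinal cord arrays, a difference of -2.91 ± 0.07 (limma adjusted p = 4.72e-55). Gsta4 (-2.64), Aldh2 (-2.34) and Gstm3 (-1.96) were also lower. Aldh1a7, which passed the filter through retina alone, read 67.2, 66.6, 29.2 and 80.0 there (2.08, and 0.84 with a 40th-percentile floor). Other probe sets of Gstm1, Gstm2, Gstm5 and Mgst2 had their highest tissue level in retina, unlike the probe sets used. Retina was sampled in B6 alone, so its tissue and strain were separated only through the strain effects of the other tissues.

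Among the 21 brain and spinal cord tissues, the shares of members called were close to those of all genes. At least 1 such tissue was called higher for 6 members, against 20.7% of genes, and lower for 5, against 16.8%. Aldh1a1 had the most calls of any member. It read 1585, 1719, 1606 and 1678 in pons (2.16 ± 0.20, limma adjusted p = 6.92e-16), 1357, 1266, 1204 and 1220.1 in medulla (1.76) and 1520.1, 762, 1205 and 1252 in the periaqueductal grey (1.62). Cerebellum (1.56), spinal cord (1.53), midbrain with thalamus (1.51) and inferior colliculi (1.49) were also higher. Their ranges overlapped with one another, with the exception of pons, where all 4 arrays lay above all of the others. At the other end were entorhinal cortex with 98.4, 98.7, 88.2 and 78 (-2.04 ± 0.21) and perirhinal cortex with 73, 101 and 95 (-2.09 ± 0.23), below all other brain arrays. The summed myelin and oligodendrocyte markers were 14726 to 16135 in pons, 13190 to 15236 in medulla and 20872 to 22621 in spinal cord, against 1598 to 1947 in entorhinal cortex, and their part in the Aldh1a1 levels was not tested.

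**Figure D3:**
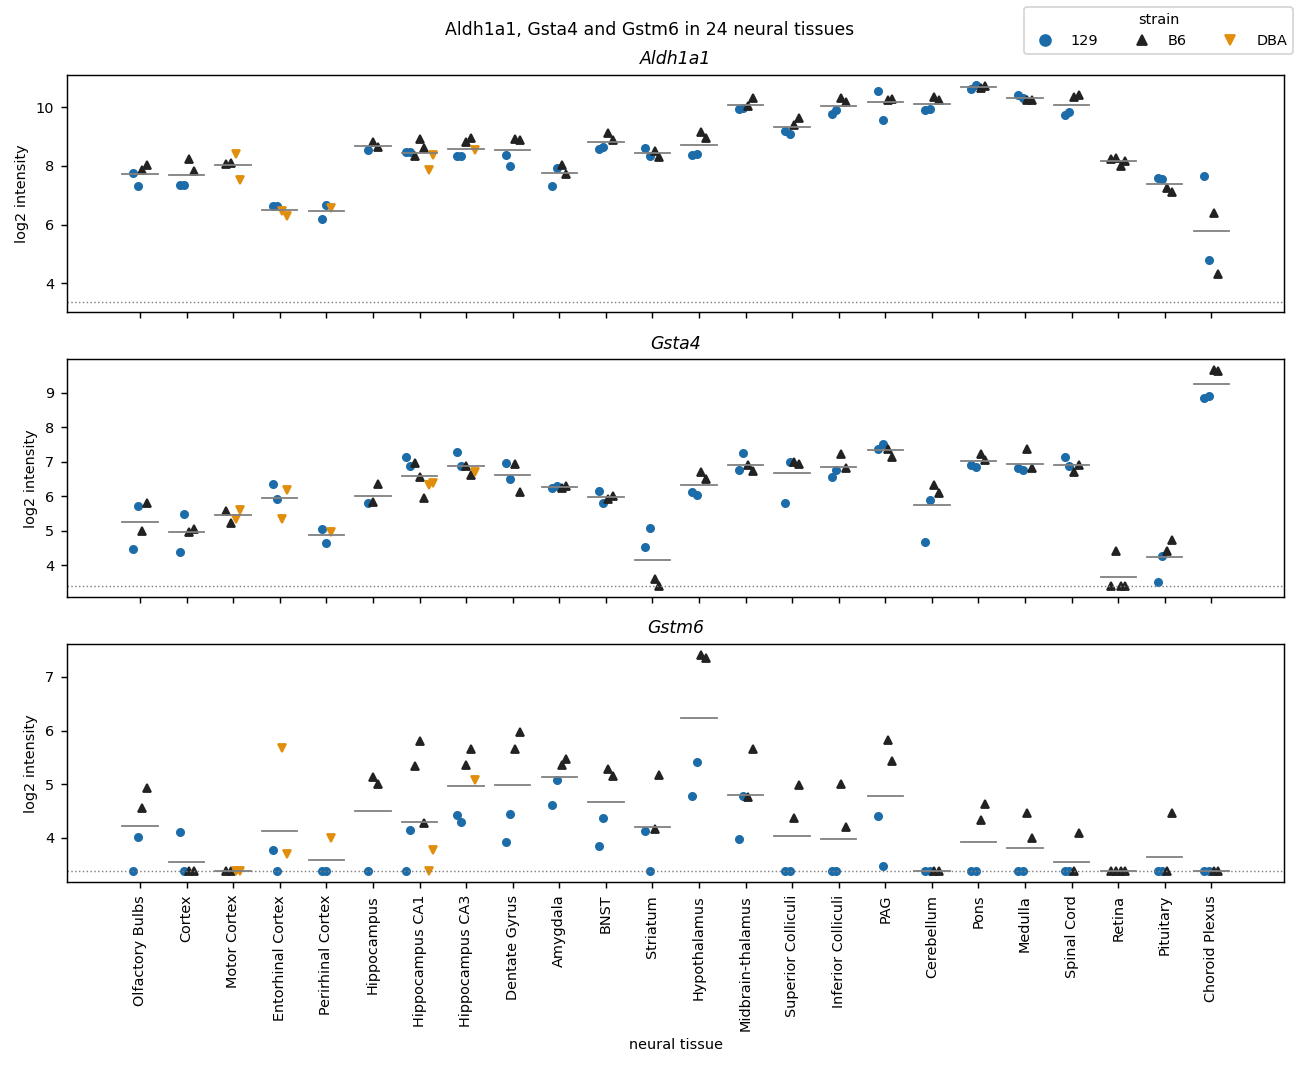
Log2 intensity of Aldh1a1, Gsta4 and Gstm6 on every array of the 24 neural tissues (1 point per array, strain by marker; dotted line, floor). Aldh1a1 is highest in pons and low in entorhinal and perirhinal cortex and choroid plexus, Gsta4 is highest in choroid plexus, and Gstm6 has its highest neural values in the hypothalamus of B6.

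Gstm6 passed the filter through hypothalamus alone, where its difference was 2.16. The 2 hypothalami of B6 read 169.6 and 164 and those of 129 read 27.6 and 42.7, so the tissue mean covers a strain difference that is described below. Gsta4 was lower in striatum (-2.06 ± 0.21), at 23.2, 33.8, 12.1 and 6.9, and in cortex (-1.21) and perirhinal cortex (-1.21), and higher in the periaqueductal grey (1.27). Gstt1 was lower in striatum (-1.32 ± 0.14, adjusted p = 1.05e-13). The other single calls were Gstm2 (-1.07) and Gstm6 (-1.08) in motor cortex, Aldh1a2 in olfactory bulbs (1.05), Mgst3 in pons (1.06) and Gstt2 in superior colliculi (1.01). Of these 5, only Mgst3 kept its call with the floor at the 40th percentile.

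Strains were first compared within liver and kidney, where each strain has 1 array per organ, so these values are a description with no test. In liver 12 members had strains at least 2-fold apart, counted where the highest strain passed the filter level, against 34.3% of genes. In kidney there were 14, against 30%. Both counts come from 50 groups of a member and an organ whose highest strain passed, and not from 37 members per organ. The widest in kidney was Aldh1a1, at 139, 1231, 66.8, 774 and 353, an 18.4-fold range from B6 to AJ, while liver Aldh1a1 ranged 1.57-fold. Kidney Aldh1a7 was at 259, 351, 72.9, 615 and 383, an 8.44-fold range, also with B6 lowest. Kidney Gsta2 was at 75 in DBA and at 738 to 1296 in the other 4, a 17.3-fold range, and kidney Gsta3 was at 34.4 in DBA and 99.4 to 135 in the others.

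Aldh9a1, which oxidizes aminoaldehydes such as that of gamma-aminobutyric acid, was lowest in DBA in kidney (521, 742, 674, 977 and 119) and in C3H in liver (711, 597, 982, 164 and 483). Kidney Gsto1 (96.3, 189, 286, 129 and 83.2) ranged 3.43-fold, kidney Ugt2b5 3.09-fold and kidney Sult1a1 2.51-fold. In liver, Sult2a2 was at 186 in B6 and on the floor in the other 4 strains, which makes it at least 17.9-fold higher in B6. Its mean over the 5 livers did not pass the filter, and it was not tested. Liver Sult5a1 (103, 34.7, 111, 184 and 77.6) ranged 5.32-fold, Sult1d1 3.73-fold, Mgst3 3.56-fold, Gsta2 3.09-fold, Gstm5 2.62-fold and Sult1a1 2.4-fold. The kidneys of C3H and DBA and the liver of DBA are the arrays with transcripts of the other organ, and the kidneys of 129 and B6 those with germ cell transcripts. Their part in these values was not tested. Titles of the kidneys of 129 and B6 and of the liver of B6 share a number code that the other liver and kidney arrays lack. Strain and this code cannot be told apart there. Kidney arrays also carried adipocyte markers, with sums of 333 to 1022, and brown adipocyte markers, with sums of 191 to 1140.5 against 29.4 to 38.7 in liver, whose part was not tested.

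**Figure D4:**
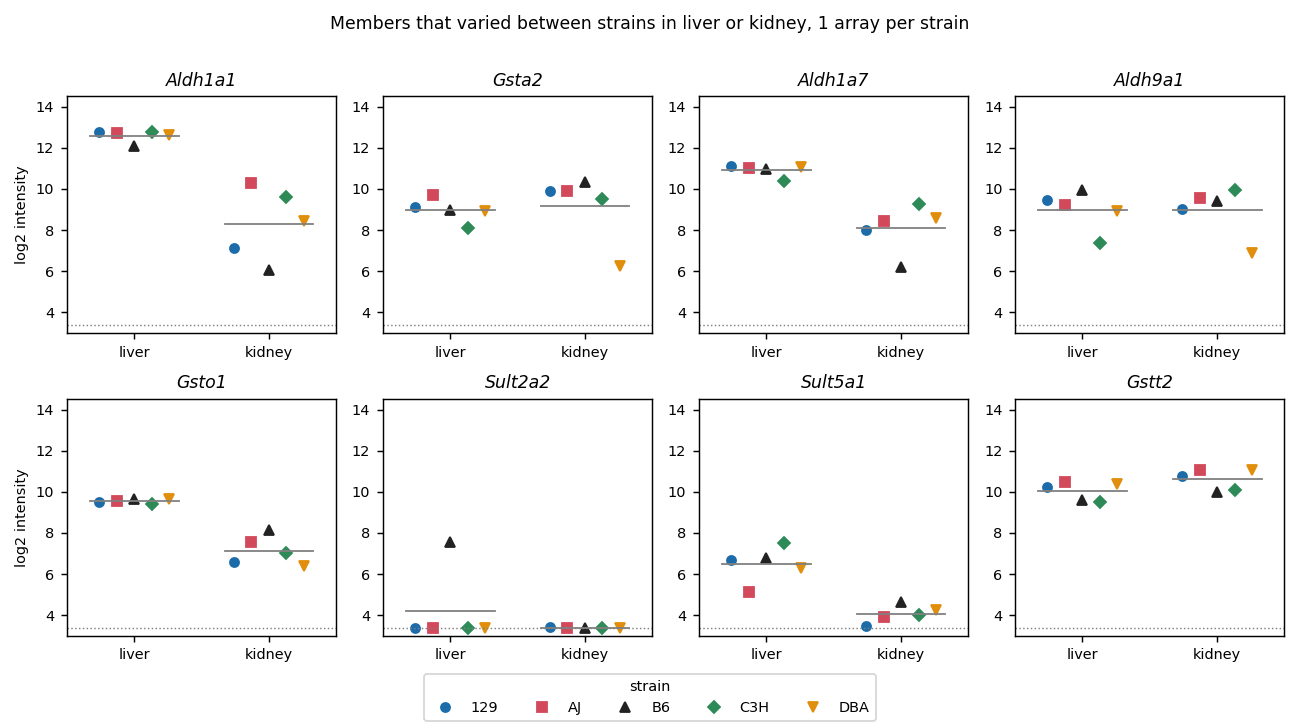
Log2 intensity of 8 members by strain in liver and kidney, with 1 array per strain and organ (dotted line, floor). Gstt2 is higher in AJ, DBA and 129 than in B6 and C3H in both organs, Aldh1a1 spreads 18.4-fold in kidney and 1.57-fold in liver, and Sult2a2 is well off the floor in the liver of B6 and near it on the other 9 arrays.

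Taking both organs together, with 10 arrays and organ as a covariate, 1 of 26 members differed among the 5 strains, against 0.653% of 5057 genes, and 5 of the 26 had an unadjusted p under 0.05. Gstt2 was at 1206, 1433, 788, 723 and 1354 in liver and 1754, 2161, 1030.3, 1097 and 2139 in kidney, with AJ, DBA and 129 above B6 and C3H in both organs. The range of the strain coefficients was 0.98 (limma F test, adjusted p = 0.0473). Leaving out any 1 of the 10 arrays ended the call, with adjusted p-values of 0.104 to 0.182, as did leaving out the kidneys of 129 and B6 together (adjusted p = 0.245).

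Over all 10 body tissues 4 of 29 members differed among strains, against 7.85% of genes. Aldh9a1 had the widest range, 1.75 from B6 to DBA (limma F test, adjusted p = 4.94e-05), and in testes it read 131, 184, 156, 138 and 27.2. Gsta4 ranged 1.31 from AJ to 129 (adjusted p = 0.00153), with white adipose tissue at 38.7, 378, 36.1, 76.4 and 249. Gsto1 ranged 0.78 from B6 to 129 (adjusted p = 0.00449). Sult5a1 ranged 0.83 from DBA to AJ (adjusted p = 0.0442), a call lost in 23 of the 50 fits that left out an array.

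In neural tissues 129 was compared with B6 over the 20 tissues that had both. No member was called higher in 129 by 1.5-fold or more (0 of 23 by limma, 1 of 23 at an unadjusted p under 0.05), against 0.67% of 6115 genes, and 3 were called lower, against 1.68%. Gsto1, the omega-class enzyme with thioltransferase activity, was lower in 129 in 20 of 20 tissues, by 0.59 ± 0.07 (limma adjusted p = 4.96e-10), and in 10 of 10 body tissues. Aldh7a1 was lower in 19 of 20, by 0.72 ± 0.04 (adjusted p = 2.98e-24). Gstm6 was lower in 17 of 20 and higher in 1, by 0.96, with the largest difference, -2.28, in hypothalamus. It is counted among the 3, but it passed the filter through hypothalamus alone, where the arrays of B6 were high. Its difference is therefore a description. With the floor at the 40th percentile Gstm6 was at -0.27, and Gsto1, which lies just past the threshold, was at -0.50. Gsto1 also lost its call in 5 of 20 fits that left out a tissue (without choroid plexus -0.53, pituitary -0.53, and cerebellum, cortex or CA3 -0.58).

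The 129 minus B6 difference was then tested for a difference between body and neural tissues. 5 of 33 members passed, against 16.9% of 7165 genes. Aldh3a1 was at 0.09 in neural and -1.01 in body tissues, where thymus (-2.22) and white adipose tissue (-1.85) were the farthest, and thymus read 10.0, 17.8, 48.5, 26 and 32.5. Its highest body tissue mean was 23.8, under the filter level of 53.2, so its body difference is one between dim values. Aldh7a1 was at -0.72 in neural tissues and -0.13 in body tissues. Of the body tissues 6 were lower in 129 and 4 higher, from -0.66 in brown adipose tissue to 0.31 in kidney and 0.53 in liver. Gstm5 (-0.05 and 0.37), Aldh1a3 (0.10 and -0.30) and Sult1b1 (-0.01 and 0.40) were the others. Sult1b1 was at 10.8 or less in every neural tissue mean, so its neural value is fixed by the floor and the difference between the classes cannot be read for it. Aldh1a3 had no neural tissue mean above 22.9, so its neural value comes from dim values too. Gstm5, Aldh1a3 and Sult1b1 each lost their call under at least 1 other setting.

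**Figure D5:**
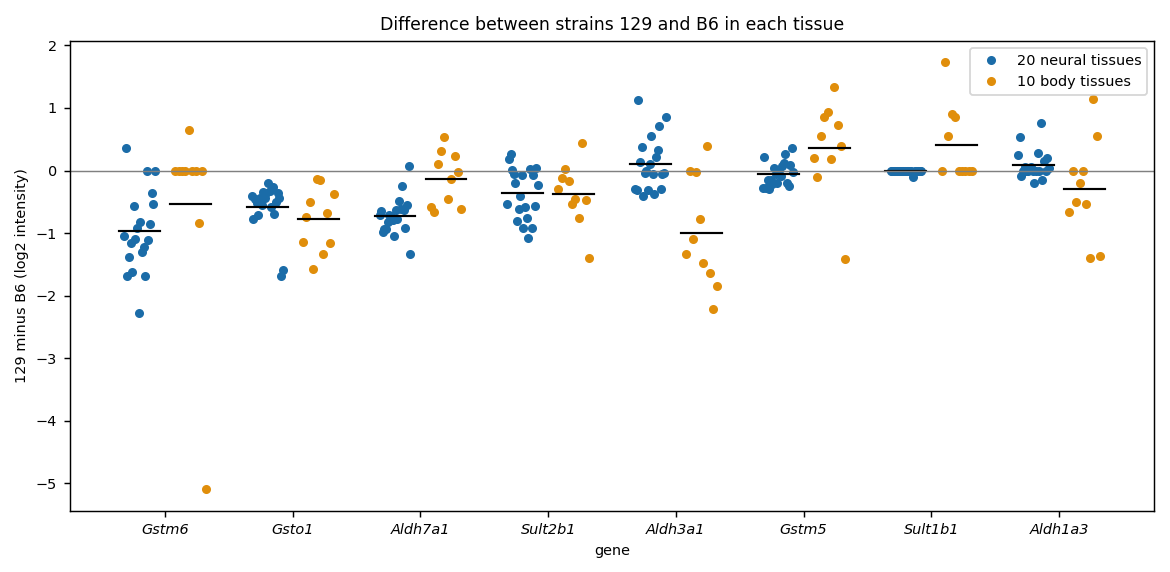
The 129 minus B6 difference in log2 intensity for 8 members, 1 point per tissue, in 20 neural and 10 body tissues (black line, mean). Gsto1 lies below 0 in all 30 tissues. Aldh7a1 has a difference of -0.72 over the neural tissues and of -0.13 over the body tissues, which run from -0.66 in brown adipose tissue to 0.53 in liver.

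Genes that supply or accompany these enzymes were counted from pathway lists, again against the mean of the other 9 body tissues. Of 14 cofactor supply genes on the array, 13 were tested. In liver 9 of them were called higher, against 13.2% of all genes, and 1 lower, against 21.1%, and in kidney 11 were called higher, against 11.8%. They included Ugdh, which makes UDP-glucuronic acid (2.32 in liver and 1.5 in kidney), Papss2, which makes PAPS (2.81 and 3.04), and Gclc (2.20 and 2.22), the rate-limiting step of glutathione synthesis. Only Slc35d1 was called higher in liver than in kidney (1.65), while Gss, Papss1, Me1 and Pgd were lower (-1.81, -2.44, -1.18 and -1.38). Median differences of this list were 1.69 in liver and 1.97 in kidney.

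Of 30 other detoxifying enzymes, 29 were tested. In liver 19 were called higher, against 13.2% of genes, and 1 lower, against 21.1%. In kidney 15 were higher, against 11.8%, and 2 lower, against 10.7%. Fmo5 (5.63), Inmt (5.20) and Adh1 (5.02) were the highest in liver. Gpx3, a plasma glutathione peroxidase made in kidney, was -4.69 in liver and 3.98 in kidney. In neural against body tissues 16 of 29 were lower, against 14.1%, and 1, Srxn1, was higher, against 14.4%. In choroid plexus 12 of 23 were higher, against 15.7%, and 2 lower, against 19%. Of 9 transporters, all tested, 5 were higher in liver, among them Slc10a1 (8.21) and Abcc2 (3.91), and 2 in kidney, Abcg2 (3.05) and Abcc2 (3.02). Of 18 regulators, 16 were tested, and 13 were higher in liver, 2 in kidney (Hnf4a with 4.41 and Nr1h4 with 3.27) and 11 in liver against kidney, where 10.7% of genes were, including the xenobiotic receptors Nr1i2 (2.42) and Nr1i3 (2.5). Of 12 retinoid metabolism genes, 8 were tested and 6 were higher in liver, led by Rdh7 (7.92).

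Some members moved together over the 34 tissue means, which share tissues and arrays, so these values are descriptions. Ugt2b5 had a correlation of 0.97 with Ugt2b34 and 0.93 with Sult1d1. Over the 24 neural tissues, where all 3 are near the floor, the values were 0.21 and 0.44. Gstm1 and Gstm3, neighbours in one gene cluster, had 0.87 over the 34 tissues, 0.79 over the neural and 0.98 over the body tissues. Aldh9a1 and Gstt2 had 0.90, 0.73 and 0.95.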

How the data were processed

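Total RNA of mouse tissues was labelled and hybridised to 1 type of Affymetrix array, per the labels' protocols. The deposited values are linear intensities, 1 column per array, of which 5.97% are below 0, with their software and scaling not given in the sources used here. Of 12488 probe sets, 66 are controls, 396 have several gene symbols and 1193 have none, by the platform annotation, and these were not named. The array number per tissue, 3 to 7, limits the precision.

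Values under 10.4 were set to 10.4 and log2 was taken. limma 3.58.1 in R 4.3.3 fitted tissue and strain (eBayes with trend), with Benjamini-Hochberg adjustment over all genes tested; Python 3.11.15 made the figures. Tissues were compared as 1 against the mean of the others of their class, neural against body over tissue means, and strains by an F test or as 129 minus B6. Strain calls needed an adjusted p under 0.05 and 1.5-fold, taken as the 129 minus B6 difference or as the range of strain coefficients in the F tests. The test of the 129 minus B6 difference between body and neural tissues needed the adjusted p alone. Alternatives were other floors, quantile normalization, no filter, every probe set, no trend, the identical arrays kept, arrays left out, and, chosen after seeing the data, 3 arrays with transcripts of the other organ or 2 kidneys with germ cell transcripts left out, and title codes as a random block. The fits were tested on simulated data.

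The members and lists were chosen with earlier results of these data known. Named genes are up to 12 called members in each direction for liver, kidney, their contrast and neural against body, up to 4 for other tissues, every called member for strains, and up to 8 per organ by strain fold. 1 further matching gene is not reported here.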

Additional observations from a re-analysis of the deposited data

Results flagged for a closer look

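Among 50 groups of 5 arrays (members in liver or kidney), 9 held 1 array far from the other 4. Independent groups would give about 1 in 20. These groups share the same liver and kidney arrays, so the count cannot be set against that rate. In liver, B6 was lowest for Aldh1a1 at 4399.8 (others 6260.4 to 6910.4) and for Gstm6 at 454.8 (others 706.4 to 801.5), C3H was lowest for Aldh1a7 at 1349.0 (others 1995.5 to 2232.1), and DBA was lowest for Aldh3a2 at 531.5 (others 1043.9 to 1267.0). Liver Sult2a2 was highest in B6 at 185.8 (others 4.2 to 6.6). It entered through that array alone, with the other 4 on the floor, so its flag was fixed in advance. In kidney, DBA was lowest for Gsta2 at 75 (others 737.9 to 1296.1) and Gsta3 at 34.4 (others 99.4 to 134.6), and highest for Gstp1 at 2121.9 (others 1571.7 to 1611.9) and Mgst3 at 2547.8 (others 1052.2 to 1337.6). The liver and kidney of DBA also carry transcripts of the other organ, and the kidneys of 129 and B6 carry germ cell transcripts, whose part in these values was not tested.

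The 129 minus B6 difference differed between body and neural tissues (body minus neural, limma interaction) by -1.10 for Aldh3a1, 0.59 for Aldh7a1, 0.41 for Gstm5, 0.41 for Sult1b1 and -0.40 for Aldh1a3. The neural value of Sult1b1 is fixed by the floor. Aldh3a1 in body tissues and Aldh1a3 in neural tissues were dim, with no tissue mean above 23.8 and 22.9.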

How the results depend on the processing

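For the probe sets used, 1 called value changed direction: Aldh1a1 in kidney was at 0.022 without the 2 kidneys with germ cell transcripts. Other probe sets of called members did change sign (Gstm3 in kidney -0.26, Gstm1 in kidney -0.44, Gstm5 in kidney -0.23, Mgst2 in liver 0.30 and kidney 0.22, Gstm2 between neural and body 0.18). Probe sets under the filter level did so too for Aldh1a1 (-0.07) and Sult1a1 (-0.02) in liver and for Sult1a1 between neural and body (0.01). The setting with every probe set counts a gene if any of its probe sets is called. Over the counts of called members, 168 of 191 values under other settings and 1369 of 1382 with 1 array or tissue left out stayed within 1.5 times the reported count. With the floor at the 40th percentile, 42 of 260 member calls were lost: liver lower had 1 call, pituitary higher 5, retina higher 0, brain and cord lower 3, 129 against B6 lower 1, and the body against neural strain test 9. With the floor at the 5th percentile of values above 0, liver lower had 4 and brain and cord lower 8. Quantile normalization lost 17 of 257 calls and gave retina higher 0, the body against neural strain test 2 and neural higher 2. Without a filter retina higher had 3; with every probe set it had 4, the body against neural strain test 9 and neural higher 2. The strain test in liver and kidney together had 0 calls with the 5th percentile floor, quantile normalization, no filter, every probe set, no trend, without the 2 kidneys with germ cell transcripts, or without the 3 arrays with transcripts of the other organ, where kidney lower had 2. With 1 array or tissue left out, calls ranged as follows: neural higher 1 to 2 and lower 10 to 15; liver higher 23 and lower 2 to 3; kidney higher 10 to 13 and lower 2 to 5; liver against kidney higher 16 to 18 and lower 3 to 5; choroid plexus higher 8 and lower 5 to 6; pituitary higher 8 to 9 and lower 6; retina higher 1 to 2 and lower 9 to 10; brain and cord higher 5 to 8 and lower 4 to 6; strains in body tissues 3 to 6, in liver and kidney 0 to 1, 129 against B6 lower 2 to 3, and the body against neural strain test 4 to 7. The causes were not tested. Replicate numbers were given in accession order. With the code in the titles as a replicate block (random, chosen after seeing the data; correlation 0.04 in body and 0.17 in neural tissues), the counts were the same or within 1.5 times, with liver higher at 23 and kidney higher at 12, and 1 of 244 calls was lost (Sult5a1 among strains, adjusted p = 0.0506). Neural against body was not run with it, and liver and kidney alone could not be fitted. The block kept the same code in different strains apart. Values near the floor limit what dim members can show.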

Other observations

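A probe set of the Ugt1a locus, which the annotation gives 8 symbols and which therefore names no single gene, read 5211, 5019, 4155, 4596 and 6801 in the livers of 129, AJ, B6, C3H and DBA. In the kidneys it read 4830, 4200, 2499, 2560 and 4077 in the same order, with B6 and C3H the lowest. White adipose tissue read 815 to 1989 and choroid plexus 174 to 272.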
